A study of Mus musculus with 20 samples.

Results

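The genes described here mark astrocytes, the glial cells that take up neurotransmitter, buffer ions and water, and line blood vessels in the brain. A list of 34 gene symbols was looked up in the table of brain expression from *Winnie* and C57BL/6 mice, and 33 of the 34 were found among its 17211 genes. They fall into 28 identity genes, which healthy astrocytes use for their everyday work, and 5 reactivity genes (*Gfap*, *Vim*, *Serpina3n*, *Cd44* and *Steap4*), which astrocytes are known to raise after injury or inflammation. The symbol not found was *Plpp3*, a lipid phosphate phosphatase. Its gene is listed under the older symbol *Ppap2b* and was not counted as a member. It stood at 275 ± 20.4 CPM (reads scaled to the same library total, SD, n = 10) in C57BL/6 and 277 ± 24.1 CPM in *Winnie* brains.

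*Winnie* mice carry a missense mutation in *Muc2*, the gene of the main intestinal mucin, and develop chronic colitis without any added agent. The comparison is C57BL/6 (n = 10) against *Winnie* (n = 10), with 1 brain RNA library per mouse, all mice aged 14 weeks, and 5 libraries labelled female and 5 labelled male in each genotype. The labels name the tissue as brain and give no region. *Muc2* itself is not among the listed genes, so the genotype could not be checked on the mutated gene. The colitis model was used to ask whether inflammation in the gut is accompanied by altered gene expression in the brain.

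Astrocytes clear glutamate from synapses through the transporters *Slc1a2* and *Slc1a3* and convert it to glutamine with *Glul*. They are joined into a network by gap junctions built of connexins, and their endfeet on vessels carry the water channel *Aqp4*. In injured or inflamed brain they enlarge and raise the filament genes *Gfap* and *Vim*, partly through cytokines of the interleukin-6 family that signal through gp130 and STAT3.

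The libraries held 16540303 to 23923769 reads on the listed genes, and 1 read corresponds to 0.0418 to 0.0605 CPM. The sample names end in S numbers that run 1 to 10 in C57BL/6 and 11 to 20 in *Winnie*. What these numbers stand for is not stated. If they mark an order of handling, that order and genotype cannot be told apart. The RNA of *Xist* and *Ddx3y* went with the sex label in 10 of 10 *Winnie* brains and against it in 9 of 10 C57BL/6 brains. Genotypes were compared with limma on log2(CPM + 0.5), and the false discovery rate (FDR) is the Benjamini-Hochberg adjusted p over all 17211 genes. A gene is called changed at an FDR under 0.05, which 434 genes reached (2.52%), 261 of them higher (1.52%) and 173 lower (1.01%) in *Winnie* brains. *Winnie* replicates 6, 7 and 8, all labelled male, lay together at one end of their group for several astrocyte genes. These 3 brains were singled out after the values were seen, and the values of several genes are given with and without them. Where they are the extreme brains in the direction of a gene's change, leaving them out must weaken that change. The fit also drops to 7 *Winnie* brains. A call lost in it is therefore a description and no test of the gene.

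Among the 33 astrocyte genes, 1 was called, *Gjb6*, which rose, beside a background of 2.52% of all genes. Without *Winnie* replicates 6, 7 and 8, 0 members were called and 4 had an unadjusted p under 0.05, with 137 genes called in all. The share of all genes at that unadjusted limit in this smaller fit is not given, so these 4 have no background beside them. With all brains, 8 members had an unadjusted p under 0.05, of which *Serpina3n*, *Prodh*, *Gjb6*, *Slc4a4* and *Fgfr3* were higher and *Aqp4*, *Apoe* and *S100b* lower in *Winnie* brains. That is 24.2% of the members, where 17.6% of all genes reached the same limit (9.53% higher and 8.08% lower). All genes reach down to a mean of 0.229 CPM, so this background is not matched to the members in expression. Members and other lists were chosen with earlier results of these data known. Shares of a list beside all genes, here and below, are therefore descriptions. The log2 fold changes ran from -0.16 (*Aqp4*) to 0.22 (*Gjb6*), and 25 of the 33 were under 0.1 in size. The median was 0.0059 over the identity genes and 0.015 over the reactivity genes, beside 0.0022 over all genes. For each of the 33 genes the 95% confidence interval lay within a 1.5-fold change in either direction on the log2(CPM + 0.5) scale, which narrows that of the low *Steap4*, and the values of both genotypes overlapped (0.0291% of all genes had groups that did not overlap). None passed the threshold of the study's methods, an FDR under 0.001 together with a change of 1.5-fold or more either way. In limma 0 genes passed it, although 3030 had an unadjusted p under 0.05. Of all genes, 1 passed it in edgeR and 12 in DESeq2. In bulk brain RNA, a smaller number of astrocytes and less of a transcript in each astrocyte cannot be told apart.

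**Figure D1:**
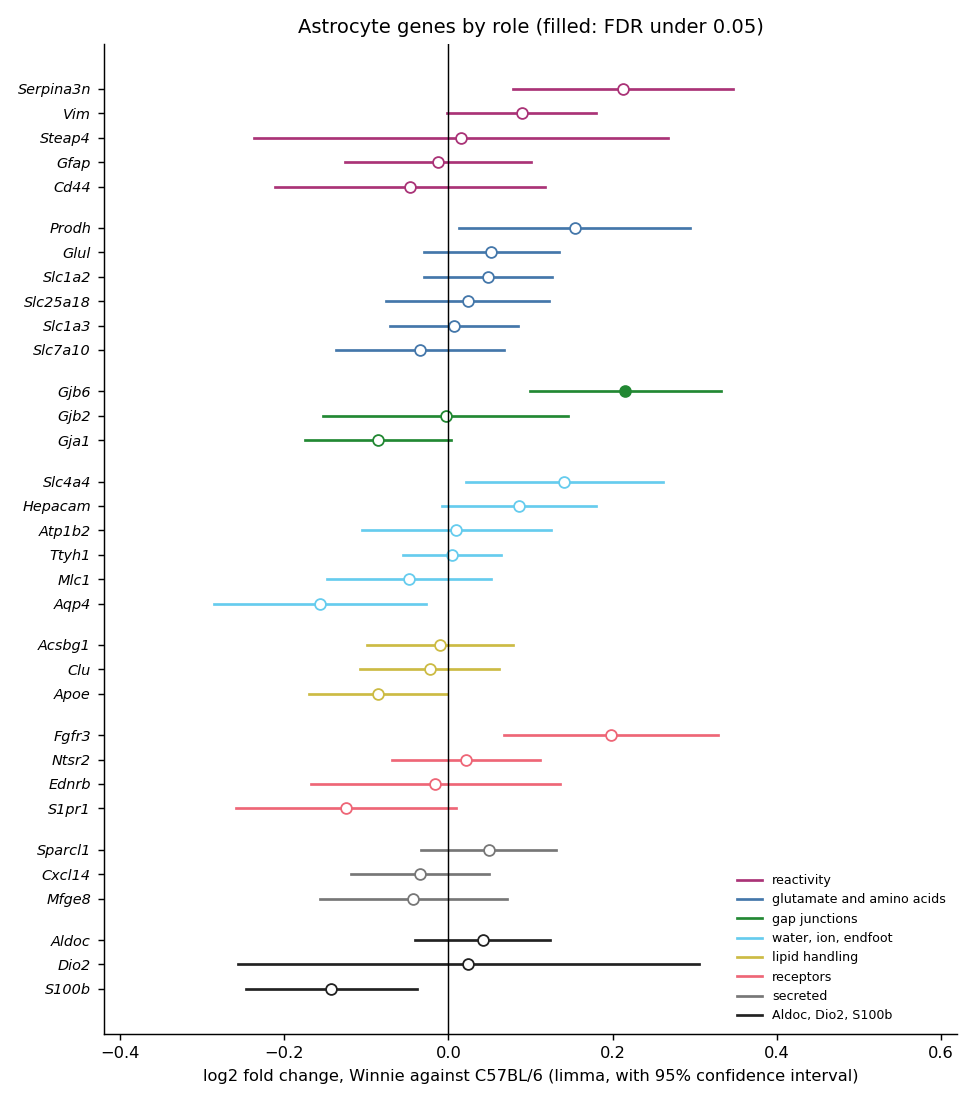
The log2 fold change of each astrocyte gene in *Winnie* against C57BL/6 brains (10 of each) is plotted on the x axis with its 95% confidence interval from limma, one gene per line, grouped and coloured by role. Only *Gjb6* is filled (FDR 0.0384), and all intervals lie between -0.29 and 0.35.

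All 33 genes had reads in every brain. This is no check of the astrocyte label. Every gene of the table had 0.5 CPM or more in at least 4 samples, and other brain cells make some of these genes. Per kilobase of the longest annotated transcript, the C57BL/6 means were highest for *Glul* (690 CPM per kilobase), *Apoe* (657) and *Sparcl1* (620), and lowest for *Cd44* (1.29) and *Steap4* (0.122). *Gfap* ranked the tenth, at 81.3 CPM per kilobase. The spread between mice of one genotype was small for most members. The median coefficient of variation of the CPM was 8.34% in C57BL/6 and 8.17% in *Winnie* brains. It was smallest for *Ttyh1* (2.73% and 3.91%), and was largest for *Steap4* (33.3% and 51.0%).

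The reactivity genes came first. *Gfap*, the intermediate filament protein by which reactive astrocytes are usually recognised, ran from 183 to 242 CPM (median 215) in C57BL/6 and from 185 to 241 CPM (median 215) in *Winnie* brains. The groups lay on top of each other, with 5 *Winnie* brains above and 5 below the C57BL/6 median. The log2 fold change was -0.013 (SE 0.055, limma, FDR 0.937), and its 95% confidence interval of -8.36% to 7.19% in *Gfap* leaves room only for small differences.

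*Vim*, the second filament protein of reactive astrocytes, which endothelial and ependymal cells also make, ran from 24.6 to 29.1 CPM (median 26.4) in C57BL/6 and from 25.4 to 30.9 CPM (median 29.3) in *Winnie* brains. *Winnie* brains sat higher, 9 above the C57BL/6 median and 5 above the highest C57BL/6 brain, and the difference did not pass the test. Its log2 fold change was 0.089 (SE 0.045, limma, unadjusted p 0.0553, FDR 0.299).

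*Serpina3n*, a secreted serine protease inhibitor that is among the most responsive transcripts of reactive astrocytes, ran from 17.6 to 25.5 CPM (median 22.4) in C57BL/6 and from 21.7 to 30.9 CPM (median 25.2) in *Winnie* brains. The mean was 22.0 ± 2.47 CPM (SD, n = 10) against 25.6 ± 2.92 CPM. Here 9 *Winnie* brains lay above the C57BL/6 median and 5 above the highest C57BL/6 value. The log2 fold change of 0.21 (SE 0.066) missed the threshold (limma, unadjusted p 0.00296, FDR 0.0738). *Serpina3n* belongs to a family of related neighbouring genes on chromosome 12 (chr12:104406729-104414329, GRCm38). Some of its reads may be split among them by the counting, which was not checked.

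The upper end of *Serpina3n* in *Winnie* was made by replicates 6, 7 and 8, at 28.2 to 30.9 CPM, while the other 7 lay between 21.7 and 26.0 CPM, beside 17.6 to 25.5 CPM in C57BL/6. Without these 3 brains the *Serpina3n* log2 fold change was 0.13 (limma, FDR 0.332). Set against *Gfap* in the same brain, *Serpina3n* had 10.3 ± 0.963 CPM per 100 CPM of *Gfap* in C57BL/6 and 12.1 ± 1.57 in *Winnie* brains (SD, n = 10), a ratio chosen after the values were seen and given without a test. In the 7 *Winnie* brains other than replicates 6, 7 and 8 it was 11.5 ± 1.38 (SD, n = 7).

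*Cd44*, a hyaluronan receptor found on fibrous and reactive astrocytes, ran from 6.48 to 9.07 CPM (median 6.94) in C57BL/6 and from 5.42 to 8.30 CPM (median 6.78) in *Winnie* brains, a log2 fold change of -0.047 (SE 0.080, limma, FDR 0.816). *Steap4*, a metalloreductase induced by inflammatory cytokines, lay near the detection limit in every brain, at 3 to 15 reads. Its values ran from 0.204 to 0.524 CPM (median 0.412) in C57BL/6 and from 0.163 to 0.781 CPM (median 0.328) in *Winnie*, with a log2 fold change of 0.015 (SE 0.12, limma, FDR 0.968). At 3 reads a library shows up to 0.181 CPM, so a difference in *Steap4* of the size seen in *Serpina3n* was not detectable at this depth.

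**Figure D2:**
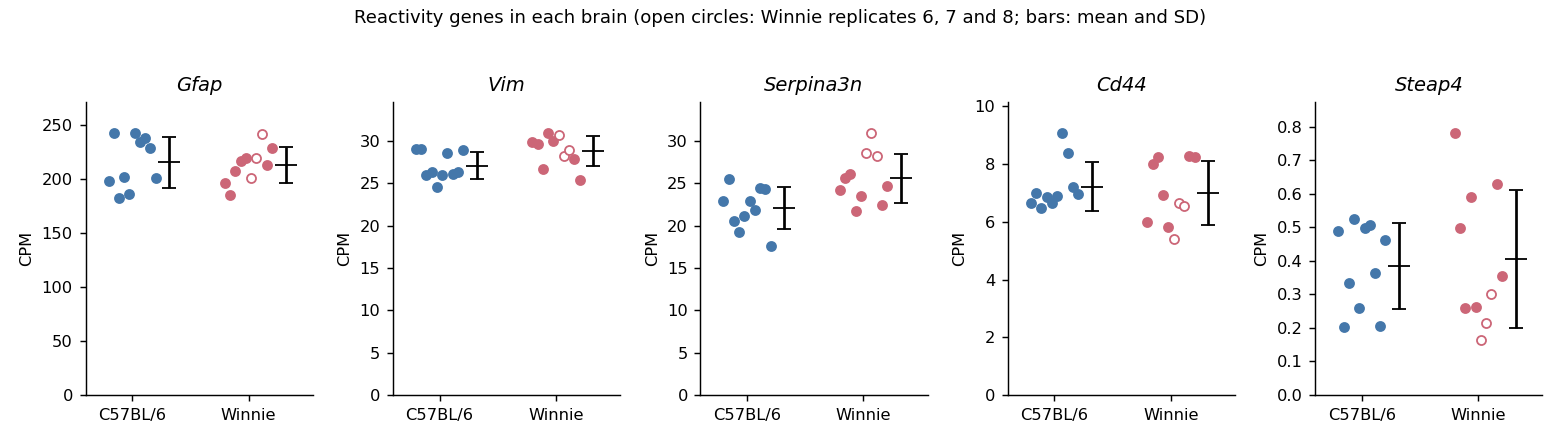
CPM of the 5 reactivity genes on the y axis (from 0) in each of the 10 C57BL/6 and 10 *Winnie* brains, 1 point per brain, with the mean and SD beside each group and *Winnie* replicates 6, 7 and 8 as open circles. *Gfap* overlaps fully between genotypes (215 ± 23.7 and 213 ± 16.3 CPM), and the open circles lead the *Serpina3n* panel.

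Reactive astrocytes carry other transcripts, which were read from lists of genes known to rise in all reactive astrocytes (pan-reactive), after inflammation or after ischaemia. Of the 8 pan-reactive genes listed 7 were found, and 0 were called in limma. At an unadjusted p under 0.05, *Cp*, the copper oxidase ceruloplasmin, was higher (14.9 ± 2.93 against 17.4 ± 1.75 CPM, SD, n = 10, log2 fold change 0.23, FDR 0.145), and the heat shock protein *Hspb1* was lower (3.66 ± 1.27 against 2.70 ± 0.550 CPM, log2 fold change -0.34, FDR 0.171). *Lcn2*, lipocalin 2, the most strongly induced gene of many inflammation models, ran from 0.157 to 2.60 CPM in C57BL/6 and from 0.052 to 5.48 CPM in *Winnie* brains, with a log2 fold change of 0.44 and a large error (SE 0.45, FDR 0.670). *Osmr*, the oncostatin M receptor, was at 4.98 ± 1.09 and 5.44 ± 0.965 CPM (log2 fold change 0.12, FDR 0.579).

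Of the 12 genes found from the inflammation list, 0 were called in limma and 1 had an unadjusted p under 0.05. This was *Fkbp5*, a co-chaperone of steroid receptors that is known to respond to glucocorticoids in many cell types, at 30.6 ± 4.58 CPM in C57BL/6 and 42.4 ± 11.8 CPM in *Winnie* (SD, n = 10, log2 fold change 0.43, SE 0.13, FDR 0.0874). All 10 *Winnie* brains were above the C57BL/6 median of *Fkbp5*, and replicates 6, 7 and 8 stood at 50.6 to 63.3 CPM with the other 7 at 31.1 to 42.8 CPM. Without these 3 brains the log2 fold change of *Fkbp5* was 0.23 (limma, FDR 0.200). With all brains *Fkbp5* passed the threshold in edgeR (FDR 0.0375) and DESeq2 (FDR 0.0256), both on recovered reads. The complement gene *C3*, the best known marker in that list, had a log2 fold change of 0.17 (FDR 0.566). Of the 9 ischaemia genes found, 0 were called, with *Cd109* higher (2.46 ± 0.309 against 3.14 ± 0.485 CPM, log2 fold change 0.30, FDR 0.0635) and *S100a10* lower (12.7 ± 1.18 against 11.5 ± 0.996 CPM, log2 fold change -0.14, FDR 0.192) at an unadjusted p under 0.05. Beside a background of 17.6%, the share of genes at that limit was 28.6% in the pan-reactive, 8.33% in the inflammation and 22.2% in the ischaemia list.

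The gp130 and STAT3 route was read through 11 genes, none of which was called in limma, and 36.4% had an unadjusted p under 0.05 beside 17.6% of all genes. The receptors *Il6ra* (6.99 ± 0.827 against 7.93 ± 0.455 CPM, log2 fold change 0.18, FDR 0.132) and *Lifr* (58.7 ± 6.38 against 66.7 ± 6.04 CPM, log2 fold change 0.18, FDR 0.0798) were higher at an unadjusted p under 0.05. The cytokine *Lif* (0.695 ± 0.178 against 0.513 ± 0.189 CPM, log2 fold change -0.25, FDR 0.252) and the STAT3-responsive kinase *Pim1* (5.61 ± 1.42 against 4.48 ± 0.666 CPM, log2 fold change -0.28, FDR 0.148) were lower at the same limit. *Stat3* itself was at 51.0 ± 2.44 and 52.5 ± 2.56 CPM (log2 fold change 0.041, FDR 0.613) and *Socs3*, its feedback inhibitor, at 2.79 ± 0.353 and 2.49 ± 0.550 CPM (log2 fold change -0.15, FDR 0.437). Of the 11 log2 fold changes 8 were positive and 3 negative. As none was called, these signs do not set receptors apart from readouts.

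STAT factors bind letters of the form TTCNNNGAA, which reads the same on both strands in its fixed letters. This form was searched in the 250 bases before the RefSeq start sites (GRCm38.p6). It was present in 7.02% of all windows and in 7 of the 34 windows of the 29 listed genes that had one, those of *Steap4*, *Acsbg1*, *Aldoc*, *Ntsr2*, *Cxcl14*, *Slc1a3* and *Prodh*. Among the reactivity genes only the window of *Steap4* held it. That sequence is shown because *Steap4* is the cytokine-inducible member (chr5:7960222-7960471, plus strand), with the match in capitals, its first base 116 bases before the start site.
Steap4: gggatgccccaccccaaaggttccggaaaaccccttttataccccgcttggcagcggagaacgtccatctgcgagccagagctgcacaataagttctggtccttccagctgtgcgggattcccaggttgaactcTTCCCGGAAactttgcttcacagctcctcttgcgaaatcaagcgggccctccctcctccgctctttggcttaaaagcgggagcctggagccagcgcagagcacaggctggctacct
The windows of *Gfap* (chr11:102897201-102897450) and *Serpina3n* (chr12:104406458-104406707) did not hold these letters. A match is a description of letters and not a bound site.

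The gap junction genes held the one called member. *Gjb6*, the astrocyte connexin of adult grey matter, ran from 46.0 to 62.8 CPM (median 54.8) in C57BL/6 and from 52.4 to 70.4 CPM (median 63.1) in *Winnie* brains. In *Winnie* it was above the C57BL/6 median in 9 of 10 brains and above the highest C57BL/6 brain in 5. Mean *Gjb6* was 54.4 ± 5.27 CPM against 63.2 ± 6.13 CPM (SD, n = 10), 852 to 1395 reads per library, a rise of 16.1% (95% confidence interval 7.11% to 25.9%, log2 fold change 0.22, SE 0.057, limma, FDR 0.0384).

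The *Gjb6* call was near the threshold. It held with sex as labelled in the fit (FDR 0.0399), but that label went against *Xist* and *Ddx3y* RNA in 9 of 10 C57BL/6 brains. That fit is therefore no adjustment for sex. The call also held with the *Ddx3y* level in the fit (FDR 0.0391). It held in edgeR (FDR 0.0330, where 3.0% of all genes were called) and in DESeq2 (FDR 0.00919, where 5.68% were). With 1 brain left out at a time it held in 9 of 20 fits (FDR 0.0158 to 0.0768). *Winnie* replicates 6, 7 and 8 were the highest, at 70.1 to 70.4 CPM, with the other 7 at 52.4 to 65.8 CPM. Without these 3 highest brains the *Gjb6* log2 fold change, which had to fall by their choice, was 0.15 (limma, FDR 0.194).

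*Gja1*, the most abundant astrocyte connexin, differed in the other direction without passing the test. It ran from 195 to 245 CPM (median 216) in C57BL/6 and from 186 to 227 CPM (median 206) in *Winnie* brains, with 7 of 10 *Winnie* brains below the C57BL/6 median (log2 fold change -0.086, SE 0.043, limma, unadjusted p 0.0574, FDR 0.304). *Gjb2*, the third connexin, which cells of the meninges also make, was at 11.7 ± 1.72 and 11.7 ± 1.18 CPM (log2 fold change -0.0035, SE 0.073, limma, FDR 0.989). The sign of this *Gjb2* value turned with quantile normalization (0.0032). *Gjb2* (chr14:57098600-57104702) and *Gjb6* (chr14:57123303-57133611) lie on the same strand of GRCm38 with 18600 bases between them. The difference between their fold changes was not tested.

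The 250 bases before the starts of this pair are shown because the genes are neighbours and only one of them was called. Both are written in the direction of the gene, on the minus strand of GRCm38.p6, from RefSeq, *Gjb6* from chr14:57133612-57133861 and *Gjb2* from chr14:57104703-57104952. Neither held TTCNNNGAA, so no letters are in capitals.
Gjb6: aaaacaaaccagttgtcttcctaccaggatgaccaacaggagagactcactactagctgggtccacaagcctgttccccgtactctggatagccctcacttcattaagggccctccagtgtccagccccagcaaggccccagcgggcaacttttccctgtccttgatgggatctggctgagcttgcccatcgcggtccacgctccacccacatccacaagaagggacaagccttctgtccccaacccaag
Gjb2: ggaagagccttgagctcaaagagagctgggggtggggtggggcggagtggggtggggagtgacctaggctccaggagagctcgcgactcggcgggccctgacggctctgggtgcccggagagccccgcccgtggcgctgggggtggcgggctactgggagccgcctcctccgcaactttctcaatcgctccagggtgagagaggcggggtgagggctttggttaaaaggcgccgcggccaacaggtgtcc

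Set against *Gja1* in the same brain, *Gjb6* ran from 21.1 to 27.8 CPM per 100 CPM of *Gja1* in C57BL/6 (median 24.7) and from 24.8 to 37.7 in *Winnie* (median 32.4). All 10 *Winnie* brains were above the C57BL/6 median and 7 above the highest C57BL/6 brain. This ratio was chosen after the values of both genes were seen, and no test is given. In the 7 *Winnie* brains other than replicates 6, 7 and 8 it ran from 24.8 to 32.7 (median 28.7), with 4 above the highest C57BL/6 brain. The summed CPM of the 9 meningeal fibroblast markers ran from 148 to 213 in C57BL/6 and from 163 to 222 in *Winnie* brains, with 1 marker called, the transporter *Slc22a6* (6.75 against 8.94 CPM, log2 fold change 0.39, limma, FDR 0.0216), and none at 0 in all brains. Their part in the connexin values was not tested.

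**Figure D3:**
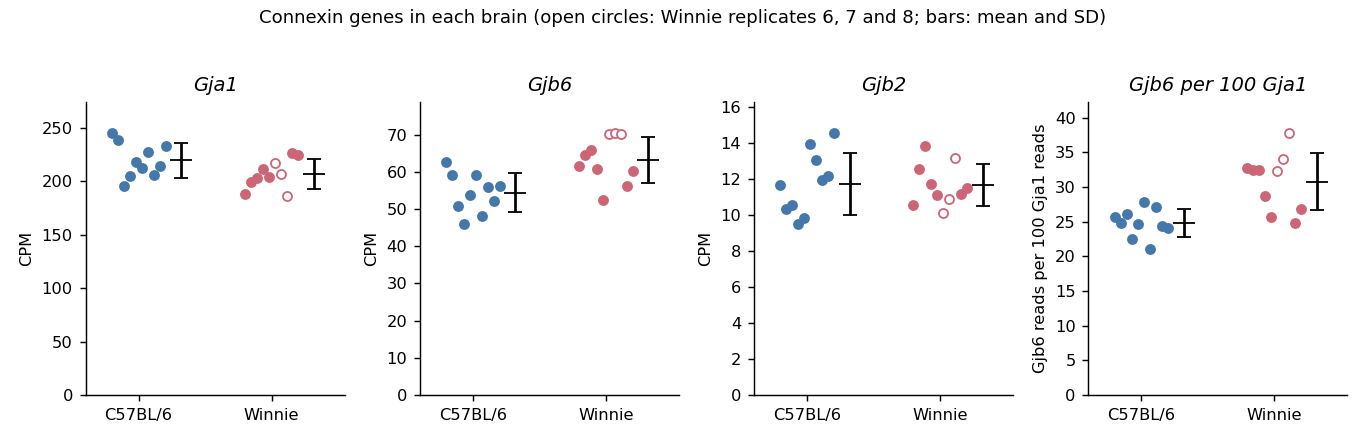
CPM of the connexin genes *Gja1*, *Gjb6* and *Gjb2*, and *Gjb6* per 100 *Gja1*, on y axes from 0, in each C57BL/6 and *Winnie* brain (10 of each), with mean and SD beside each group and *Winnie* replicates 6, 7 and 8 as open circles. *Gjb6* is higher in *Winnie* (54.4 ± 5.27 against 63.2 ± 6.13 CPM) while *Gja1* is slightly lower (220 ± 16.1 against 207 ± 13.8 CPM, FDR 0.304), and the ratio in the last panel is above the highest C57BL/6 brain in 7 *Winnie* brains.

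The glutamate and amino acid genes, 6 in all, had 0 called and 5 of 6 with a positive log2 fold change. *Slc1a2*, the main glutamate transporter of the forebrain and the member with the most reads, ran from 2644 to 3329 CPM (median 2854) in C57BL/6 and from 2798 to 3289 CPM (median 2955) in *Winnie* brains (log2 fold change 0.049, SE 0.038, limma, FDR 0.544). The groups overlapped across almost their whole range. *Glul*, glutamine synthetase, was at 1926 ± 107 and 2000 ± 158 CPM (log2 fold change 0.052, FDR 0.535), and *Slc1a3*, the transporter that dominates in cerebellum, at 439 ± 14.4 and 442 ± 34.9 CPM (log2 fold change 0.0072, FDR 0.951).

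*Prodh*, the mitochondrial enzyme that begins proline breakdown, was the one amino acid gene with an unadjusted p under 0.05. It ran from 16.4 to 23.6 CPM (median 18.7) in C57BL/6 and from 17.8 to 26.8 CPM (median 20.97) in *Winnie* brains, with 8 of 10 *Winnie* brains above the C57BL/6 median (log2 fold change 0.15, SE 0.069, limma, FDR 0.237). Without *Winnie* replicates 6, 7 and 8 the log2 fold change of *Prodh* was 0.083 (limma, FDR 0.605). *Slc7a10*, a transporter of small neutral amino acids, and *Slc25a18*, a mitochondrial glutamate carrier, had log2 fold changes of -0.035 and 0.023. The exons of *Slc1a2*, *Glul*, *Slc7a10* and *Slc25a18* overlap those of another annotated gene in part, as do those of *Ttyh1*, *Fgfr3* and *Dio2*. Strand use in the counting is not given in the sources used here, so reads of such pairs may be shared.

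Among the 6 genes of water, ion and endfoot membrane proteins 0 were called, and the 2 furthest from 0 had opposite signs. *Aqp4*, the water channel of perivascular endfeet, ran from 149 to 208 CPM (median 175) in C57BL/6 and from 135 to 197 CPM (median 159) in *Winnie* brains, with 9 of 10 *Winnie* brains below the C57BL/6 median (log2 fold change -0.16, SE 0.063, limma, unadjusted p 0.0191, FDR 0.180). *Slc4a4*, a sodium bicarbonate cotransporter of the astrocyte membrane, ran from 193 to 280 CPM (median 236) in C57BL/6 and from 236 to 313 CPM (median 261) in *Winnie*, with 9 of 10 *Winnie* brains above that median (log2 fold change 0.14, SE 0.058, limma, unadjusted p 0.0230, FDR 0.194). The groups overlapped for both genes, with 2 *Winnie* brains below the lowest C57BL/6 brain for *Aqp4* and 3 above the highest for *Slc4a4*. Without *Winnie* replicates 6, 7 and 8 the log2 fold change of *Aqp4* was -0.093 (FDR 0.492) and that of *Slc4a4* 0.18 (FDR 0.160).

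*Atp1b2*, the sodium pump subunit of astrocytes, ran from 824 to 1209 CPM (median 1023) in C57BL/6 and from 901 to 1211 CPM (median 1053) in *Winnie* (log2 fold change 0.0095, SE 0.056, limma, FDR 0.955). *Mlc1* and *Hepacam*, partners in a membrane complex at astrocyte contacts, had log2 fold changes of -0.048 and 0.086 (FDR 0.661 and 0.332). *Ttyh1*, a membrane protein related to volume-regulated channels, was at 511 ± 13.9 and 512 ± 20.02 CPM.

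Of the 3 lipid genes 0 were called. *Apoe*, the apolipoprotein with which astrocytes export cholesterol, ran from 842 to 981 CPM (median 940) in C57BL/6 and from 801 to 1013 CPM (median 853) in *Winnie* brains. In 8 of 10 *Winnie* brains it was below the C57BL/6 median, and 4 were below the lowest C57BL/6 brain (log2 fold change -0.085, SE 0.041, limma, unadjusted p 0.0469, FDR 0.274). *Clu*, clusterin, a secreted chaperone and lipid carrier, and *Acsbg1*, a long-chain acyl-CoA synthetase, had log2 fold changes of -0.023 and -0.010. The sign of *Clu* turned with the length and GC correction (0.0027) and without *Winnie* replicates 6, 7 and 8 (0.019), and that of *Acsbg1* turned without these brains (0.014).

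*Apoe* is also made by microglia. Of 10 microglial markers, 0 were called in limma and 4 were lower at an unadjusted p under 0.05, among them *Cx3cr1* (-0.18), *Aif1* (-0.24) and *Trem2* (-0.19), given as log2 fold changes with FDR from 0.119 to 0.252. That is 40% of the list, beside 17.6% of all genes at that limit in either direction and 8.08% lower. In all, 9 of the 10 log2 fold changes were negative, with a median of -0.10. The summed CPM of the list ran from 353 to 392 in C57BL/6 and from 321 to 417 in *Winnie* brains, and no marker was at 0 in all brains. The part of microglia in the *Apoe* value was not tested.

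The 4 surface receptors had 0 called. *Fgfr3*, a fibroblast growth factor receptor of astrocytes and their progenitors, ran from 88.4 to 124 CPM (median 96.0) in C57BL/6 and from 96.3 to 136 CPM (median 114) in *Winnie* brains, and it was the one member with all 10 *Winnie* brains above the C57BL/6 median. The log2 fold change was 0.20 (SE 0.063, limma, unadjusted p 0.00436, FDR 0.0866). C57BL/6 replicate 2, at 124 CPM, stood above the next brain of its group at 106 CPM, and without that brain the gene was called (log2 fold change 0.24, limma, FDR 0.0238). Without *Winnie* replicates 6, 7 and 8, which lay at 115 to 136 CPM, the log2 fold change of *Fgfr3* was 0.13 (limma, FDR 0.302).

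*S1pr1*, a receptor for sphingosine 1-phosphate and the receptor gene with the most reads, ran from 166 to 207 CPM (median 191) in C57BL/6 and from 138 to 207 CPM (median 179) in *Winnie* brains (log2 fold change -0.12, SE 0.065, limma, unadjusted p 0.0677, FDR 0.329). Its low end was again *Winnie* replicates 6, 7 and 8, at 138 to 152 CPM, with the other 7 at 164 to 207 CPM. Without these 3 brains the log2 fold change of *S1pr1* was -0.015 (FDR 0.918). *Ednrb*, an endothelin receptor, and *Ntsr2*, a neurotensin receptor, had log2 fold changes of -0.016 and 0.021, and *Ednrb* turned sign without the same brains (0.075).

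The 3 secreted proteins and the remaining 3 genes completed the identity list. *Sparcl1*, a matrix protein that promotes synapse formation, ran from 1534 to 1858 CPM (median 1741) in C57BL/6 and from 1593 to 1903 CPM (median 1774) in *Winnie* (log2 fold change 0.049, SE 0.040, limma, FDR 0.564). *Mfge8*, a bridge for phagocytosis, and *Cxcl14*, a chemokine made by resting astrocytes, had log2 fold changes of -0.043 and -0.035. None of the secreted proteins reached an unadjusted p under 0.05.

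*Aldoc*, the aldolase of astrocytes, ran from 712 to 910 CPM (median 849) in C57BL/6 and from 791 to 923 CPM (median 856) in *Winnie* brains (log2 fold change 0.042, SE 0.040, limma, FDR 0.642). *Dio2*, the deiodinase that supplies the brain with active thyroid hormone, spread widely in both genotypes, 51.1 to 97.9 CPM in C57BL/6 and 50.9 to 84.5 CPM in *Winnie* (log2 fold change 0.024, SE 0.13, limma, FDR 0.953).

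*S100b*, a calcium-binding protein made by astrocytes and by some oligodendrocytes, ran from 101 to 134 CPM (median 118) in C57BL/6 and from 94.6 to 123 CPM (median 106) in *Winnie* brains. It was below the C57BL/6 median in 9 of 10 *Winnie* brains (log2 fold change -0.14, SE 0.051, limma, unadjusted p 0.00875, FDR 0.123). Of 10 oligodendrocyte markers 0 were called, and 2 were lower at an unadjusted p under 0.05, *Cnp* (log2 fold change -0.14, FDR 0.142) and *Ugt8a* (log2 fold change -0.21, FDR 0.0899). That is 20% of the list, beside 17.6% of all genes at that limit in either direction and 8.08% lower. The summed CPM of the 10 markers ran from 6885 to 8712 in C57BL/6 and from 6893 to 8228 in *Winnie* brains. No marker was at 0 in all brains, and the part of oligodendrocytes in the *S100b* value was not tested.

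Another 30 genes of astrocyte identity that were not on the member list gave 4 calls, 2 in each direction, 13.3% beside 2.52% of all genes, and 3 of them are described here. The list was chosen with earlier results of these data known, so its share is a description and no test of enrichment. *Mertk*, a phagocytic receptor by which astrocytes and microglia engulf synapses and debris, rose (37.1 ± 4.46 against 46.5 ± 6.36 CPM, SD, n = 10, log2 fold change 0.32, limma, FDR 0.0255). *Fabp7*, a fatty acid binding protein of radial glia and astrocytes, fell (12.9 ± 2.35 against 9.50 ± 1.43 CPM, log2 fold change -0.42, FDR 0.0163), and so did *Cst3*, the protease inhibitor cystatin C made by astrocytes and microglia (705 ± 50.8 against 628 ± 51.5 CPM, log2 fold change -0.17, FDR 0.0439). Without *Winnie* replicates 6, 7 and 8 these 3 genes kept their direction and none was called, in a fit with fewer samples, with log2 fold changes of 0.22 for *Mertk* (limma, FDR 0.117), -0.40 for *Fabp7* (FDR 0.0727) and -0.15 for *Cst3* (FDR 0.119). Of the 30 genes 0 were then called. With 1 brain left out at a time 1 to 4 were called, and only *Fabp7* was without C57BL/6 replicate 5, C57BL/6 replicate 8 or *Winnie* replicate 8. edgeR called 3, without *Cst3*, and DESeq2 5. After the correction for transcript length and GC content described further on 1 was called, *Fabp7* (log2 fold change -0.36, limma, FDR 0.0311).

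At an unadjusted p under 0.05 the list held another 7 genes. With the 4 called genes, 36.7% of the list reached that limit, beside 17.6% of all genes. Of these 7, the transcription factors *Sox9* (log2 fold change -0.17) and *Id3* (-0.18), the lipase *Pla2g7* (-0.13), the secreted *Chrdl1* (-0.19) and *Fjx1* (-0.12) were lower. *Gpc4* (0.15) and *Thbs1* (0.25) were higher. The limma FDR of the 7 genes ran from 0.0904 to 0.257. *Aldh1l1*, the enzyme most often used to mark all astrocytes, was at 54.9 ± 2.73 and 55.3 ± 5.34 CPM (log2 fold change 0.0051, FDR 0.974). *Kcnj10*, the potassium channel of endfeet, had a log2 fold change of -0.019 (FDR 0.936).

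Averaged per brain on the log2 scale and set to the C57BL/6 mean, the 28 identity genes spanned -0.084 to 0.065 in C57BL/6 and -0.050 to 0.054 in *Winnie* brains. The *Winnie* mean was 0.0096 ± 0.038 (SD, n = 10), beside an SD of 0.049 in C57BL/6. The 5 reactivity genes spanned -0.14 to 0.14 in C57BL/6 and -0.062 to 0.13 in *Winnie*, with a *Winnie* mean of 0.051 ± 0.061 beside an SD of 0.088 in C57BL/6. No *Winnie* brain exceeded the highest C57BL/6 brain on either average. Of the 10 *Winnie* brains, 8 were above the C57BL/6 median on the reactivity genes and 5 on the identity genes. Each gene counts equally, so *Steap4*, at 3 to 15 reads a library, weighs as much as *Gfap* in the reactivity average. *Winnie* replicate 6, the lowest *Winnie* brain on that average, had 28.6 CPM of *Serpina3n* and 0.163 CPM of *Steap4*. These averages are descriptions, without a test.

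**Figure D4:**
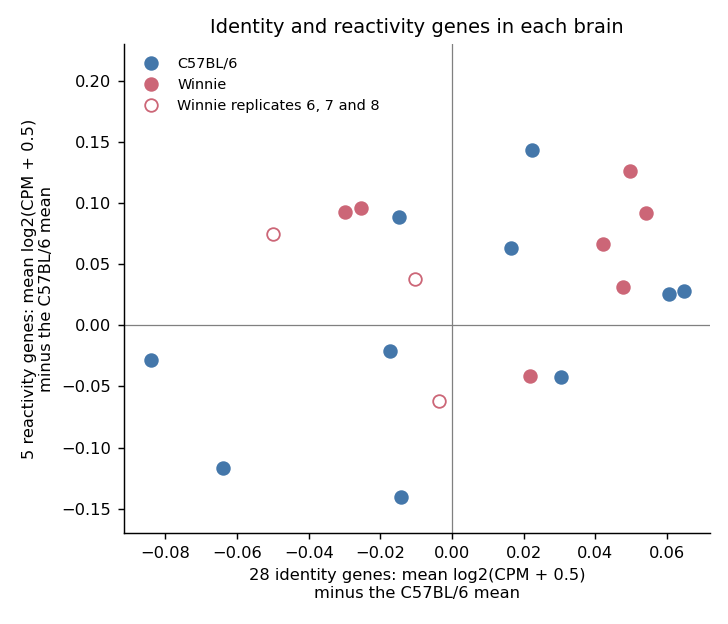
Each point is 1 brain, placed by the mean log2(CPM + 0.5) of the 28 identity genes (x axis) and of the 5 reactivity genes (y axis), both minus the C57BL/6 mean, with *Winnie* replicates 6, 7 and 8 open. Both genotypes share the same field, and the *Winnie* means lie at 0.0096 on the x axis and 0.051 on the y axis. *Steap4*, at 3 to 15 reads a library, weighs as much as each other reactivity gene.

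Members were also compared with each other between brains of one genotype, in 10 relations of 5 gene pairs, by permutation test with 100000 resamples, and 0 passed after Benjamini-Hochberg adjustment. *Gfap* and *Serpina3n* had Pearson r = 0.65 in C57BL/6 (permutation p = 0.0426, adjusted 0.213, Spearman rho = 0.64, permutation p = 0.0540, adjusted 0.270, r = 0.71 without the 2 brains farthest from the *Gfap* median). In *Winnie* brains r was 0.10 for the same pair (permutation p = 0.783, adjusted 0.783, rho = 0.10, permutation p = 0.784). *Gja1* and *Gjb6* had r = 0.56 in C57BL/6 (permutation p = 0.0948, adjusted 0.316, rho = 0.65, permutation p = 0.0495, adjusted 0.270, r = 0.34 without 2 brains). In *Winnie* they had r = -0.31 (permutation p = 0.384, adjusted 0.479, rho = -0.41, permutation p = 0.248, r = 0.099 without 2 brains). The difference between genotypes was not tested. *Slc1a2* and *Slc1a3* gave the smallest p, with r = 0.72 in *Winnie* (permutation p = 0.0194, adjusted 0.194, rho = 0.48, permutation p = 0.169, r = 0.54 without 2 brains) and r = -0.34 in C57BL/6 (permutation p = 0.331).

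Fold changes went with transcript length over the whole table. Over 11951 genes with at least 5 CPM on average, the Spearman rho of log2 fold change and transcript length was 0.44, given as a description. The median log2 fold change climbed from -0.070 in the shortest octile of transcripts to 0.067 in the longest. Over the 33 members rho was 0.19. *Gjb6* and *Serpina3n* have short transcripts (2105 and 2064 bases), in an octile with a median of -0.040, and lay 0.26 and 0.25 above it. *Slc4a4*, with 7931 bases, lay 0.074 above the 0.067 of its octile, *Apoe* lay 0.016 below the -0.070 of its own, and *S100b* 0.073 below the same median.

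With log2 values corrected for length and GC content, an alternative added after the data were seen, 303 genes were called (1.77%), 2 of them members. *Gjb6* had a log2 fold change of 0.23 (limma, FDR 0.0261) and *Serpina3n* 0.23 (limma, FDR 0.0497). *Slc4a4* stood at 0.075 (FDR 0.443), *Prodh* at 0.12 (FDR 0.407) and *Apoe* at -0.046 (FDR 0.588), with *Aqp4* at -0.18 (FDR 0.113). *Fgfr3* and *S100b* stood at 0.17 and -0.11 (FDR 0.153 and 0.144).

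**Figure D5:**
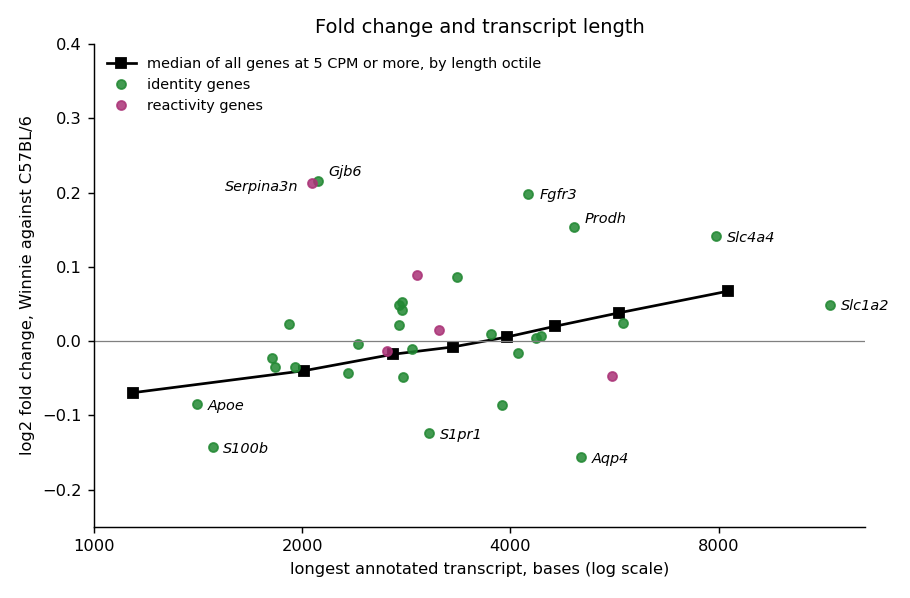
The log2 fold change in *Winnie* against C57BL/6 brains (y axis) against the length of the longest annotated transcript in bases (x axis, log scale), for identity genes (green), reactivity genes (purple) and the medians of 8 length classes of all genes at 5 CPM or more (black squares). The black line climbs from -0.070 to 0.067, *Gjb6* and *Serpina3n* lie 0.26 and 0.25 above it, and *Aqp4* lies 0.18 below it.

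Markers of other cells were read in the same brains. Of 10 neuron markers 0 were called in limma and 0 had an unadjusted p under 0.05. Of 10 endothelial and pericyte markers 1 was called, *Cldn5*, the tight junction protein of the blood-brain barrier that astrocyte endfeet adjoin. It fell from 16.4 ± 2.37 to 11.7 ± 1.70 CPM (SD, n = 10, log2 fold change -0.47, FDR 0.00331), while *Slco1a4*, *Abcb1a*, *Ly6c1* and *Rgs5* were higher at an unadjusted p under 0.05 (log2 fold changes 0.34, 0.17, 0.21 and 0.11, FDR 0.0503 to 0.215), and the summed CPM of the list ran from 317 to 416 in C57BL/6 and from 341 to 406 in *Winnie*. The list had 10% called beside 2.52% of all genes, and 50% at an unadjusted p under 0.05 beside 17.6%. The marker lists too were chosen with earlier results of these data known, so their shares are descriptions.

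Of 5 oligodendrocyte precursor markers *Pdgfra* rose (58.5 ± 5.30 to 67.3 ± 5.32 CPM, log2 fold change 0.20, limma, FDR 0.0330) and *Olig2* fell (41.2 ± 4.63 to 33.4 ± 4.24 CPM, log2 fold change -0.30, FDR 0.0209), with *Gpr17* lower at an unadjusted p under 0.05 (log2 fold change -0.15, FDR 0.189). The 2 calls are 40% of the list beside 2.52% of all genes. With the length and GC correction *Pdgfra* was not called (log2 fold change 0.14, limma, FDR 0.125). Among meningeal markers *Col1a1* and *Col3a1* were lower at that limit (log2 fold changes -0.24 and -0.28, FDR 0.216 and 0.136). Of 8 choroid plexus markers *Kcne2* was lower (log2 fold change -0.40, FDR 0.0993), of 8 cerebellar markers *Barhl2* was higher (log2 fold change 0.34, FDR 0.225), and of 6 ependymal markers none reached the limit. Of the called markers named here *Cldn5* was also called without *Winnie* replicates 6, 7 and 8 (FDR 0.00453), while in that smaller fit *Olig2*, *Pdgfra* and *Slc22a6* were not, with log2 fold changes of -0.26, 0.21 and 0.40 (FDR 0.0846, 0.0791 and 0.0678). No marker list stood at 0 in its summed CPM, but single markers did in some brains. The cerebellar *Gabra6* ran from 0.125 to 7.44 CPM in C57BL/6 and from 0 to 1.40 CPM in *Winnie* brains. *Pcp2* ran from 0 to 5.02 CPM and from 0 to 1.02 CPM. The largest share of the cerebellar sum came from *Calb1* (105 and 100 CPM on average), so that sum does not follow the low genes. The part of dissection or of these cells in the astrocyte values was not tested.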

How the data were processed

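Total brain RNA of each mouse was sequenced by the authors as paired reads of polyA libraries, counted per gene on GRCm38 with featureCounts inside the RNAsik pipeline (version 1.5.4), and deposited as CPM, the reads of a gene scaled to the same total over the listed genes in each library. The submitters' processing notes also name limma. Aligner, strand setting and low-count filter are not given in the sources used here, and every gene in the table has 0.5 CPM or more in at least 4 of the 20 samples. The study's text describes fewer brains than are labelled, and all 20 labelled samples were used.

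Samples were grouped by the genotype label. All values were whole multiples of what 1 read is worth, and 100% came out whole in every sample (tolerance 0.05 reads), which gave the depth. CPM intervals between mice reflect the spread between mice, and limits from reads cover counting error only. Because the file holds CPM and not counts, the main test was a limma fit (3.58.1, R 4.3.3) of log2(CPM + 0.5) over all 17211 genes, two-sided, with trend and robust variance. Fold changes are on that scale, which understates the change of low genes. On the recovered reads edgeR 4.0.16 (quasi-likelihood, TMM) called 517 genes and DESeq2 1.42.0 called 977. The fit was repeated with 0.1 or 1 in place of 0.5, without genes under 1 CPM on average, after median-ratio or quantile scaling, and with sex as labelled, the *Ddx3y* level or a replicate block as a term, and each sample was left out in turn. A spline correction for transcript length and GC content, and leaving out 3 *Winnie* brains, were added after the data were seen. Scripts were tested on simulated data. Correlations used scipy 1.17.1.

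The members, and the lists of other genes, were chosen with earlier results of these data known. Full values are given for the 5 reactivity genes, for members with an FDR or an unadjusted p under 0.05, and for the member with the highest mean CPM in each role group. Genes of other lists are named at an FDR or an unadjusted p under 0.05, as are *Lcn2*, *Osmr*, *Stat3* and *Socs3*. Values of 2 genes of those lists are not reported here, although the counts over the lists include them. *C3*, *Aldh1l1*, *Kcnj10*, *Gabra6*, *Pcp2*, *Calb1* and the values of some other members were added to these after the values were seen. Positions and transcript lengths come from GENCODE M21, which matched 17128 genes by identifier, and promoter sequences from RefSeq.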

Additional observations from a re-analysis of the deposited data

Results flagged for a closer look

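Values far from their group were looked for in 74 pairs of a gene and a genotype with 10 brains each, by Dixon's test (critical value 0.466), and 5 were found, where chance gives about 1 in 20. They were *Slc25a18* in C57BL/6 replicate 4, the lowest of its group at 51.2 CPM with the next at 61.4, and *Fgfr3* in C57BL/6 replicate 2, the highest at 124 CPM with the next at 106. *Lcn2* in C57BL/6 replicate 2 was also the highest of its group, at 2.60 CPM with the next at 1.32. In *Winnie* replicate 4, *Acsbg1* was the highest at 135 CPM with the next at 120, and so was *S100b*, at 123 CPM with the next at 109.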

How the results depend on the processing

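*Gjb6* was called in 11 of the 12 alternatives other than leaving out 1 sample, with log2 fold changes of 0.15 to 0.23. It was not called without *Winnie* replicates 6, 7 and 8, its highest *Winnie* brains, whose removal had to lower it. In that fit 137 genes and 0 members were called and 4 members had an unadjusted p under 0.05. It was also lost without any 1 of C57BL/6 replicates 3, 4, 5, 7, 8 and 9 or *Winnie* replicates 2, 3, 6, 7 and 8. With 1 sample left out, 169 to 694 genes passed an FDR under 0.05 and 0 to 2 the study's threshold, with 0 to 3 members called and 6 to 10 at an unadjusted p under 0.05. The shares of all genes at that unadjusted limit in these smaller fits are not given. The count of genes moved by over 1.5 times without C57BL/6 replicates 3 (238), 5 (169), 8 (250), 9 (270) or 10 (694) and *Winnie* replicates 2 (264), 3 (241), 7 (256) or 8 (216). *Fgfr3* was called without C57BL/6 replicate 2, and *Serpina3n* without that brain or *Winnie* replicate 4. DESeq2 called 977 genes, 12 at the study's threshold, and 4 members (*Gjb6*, *Fgfr3*, *Serpina3n* and *S100b*). With edgeR 1 gene passed the study's threshold, and the length and GC correction called 2 members. The causes were not tested. The same replicate number does not mark a shared mouse or batch, and samples of one number did not deviate together (r from -0.29 to 0.15, with 1 of 10 numbers correlating best with itself). With the replicate number as a block, 227 genes and 1 member (*Gjb6*, FDR 0.0466) were called, and 1 of the 30 other identity genes (*Fabp7*) in place of 4, and *Pdgfra* (FDR 0.0540) and *Slc22a6* (FDR 0.0524) were not called.

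Directions turned only for members with a log2 fold change under 0.05 in size. With quantile normalization the values were 0.0032 (*Gjb2*) and -0.0088 (*Ttyh1*), with *Ddx3y* in the fit 0.010 (*Gjb2*) and -0.00013 (*Ttyh1*). The length and GC correction gave -0.034 (*Slc1a2*), -0.016 (*Slc1a3*), 0.0091 (*Gjb2*), -0.0041 (*Atp1b2*), -0.022 (*Ttyh1*), 0.0027 (*Clu*) and -0.015 (*Dio2*). Without the 3 *Winnie* brains the values were 0.020 (*Cd44*), 0.024 (*Slc7a10*), 0.011 (*Gjb2*), -0.0085 (*Ttyh1*), 0.019 (*Clu*), 0.014 (*Acsbg1*), 0.075 (*Ednrb*) and -0.021 (*Dio2*). With 1 sample left out the log2 fold change ran from -0.038 to 0.0089 for *Gfap*, -0.044 to 0.062 for *Steap4*, -0.035 to 0.031 for *Gjb2*, -0.034 to 0.0071 for *Acsbg1*, -0.028 to 0.034 for *Atp1b2*, -0.028 to 0.080 for *Dio2* and -0.045 to 0.027 for *Ednrb*. It ran from -0.0069 to 0.041 for *Ntsr2*, -0.014 to 0.021 for *Slc1a3*, -0.012 to 0.038 for *Slc25a18* and -0.0068 to 0.012 for *Ttyh1*. The median over the identity genes ran from -0.0084 to 0.016 and over the reactivity genes from -0.016 to 0.062. Depth limits *Steap4*, with 3 to 15 reads a library.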
